A study of Homo sapiens with 27 samples.

Results

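Nonsense-mediated decay (NMD) is the surveillance pathway by which cells destroy mRNAs whose translation stops too early, along with a set of normal transcripts that share the same features. UPF1 is its central RNA helicase, UPF2 and the paralogs UPF3A and UPF3B tie UPF1 to the exon junction complex, the SMG1 kinase with its partners SMG8 and SMG9 phosphorylates UPF1, and SMG5 and SMG6 act on the phosphorylated form, SMG6 as an endonuclease. The mRNAs of these 9 genes, chosen by name, were followed in the nuclear, cytoplasmic and total poly(A)+ RNA of U2OS cells, a human osteosarcoma line, with and without TPR. TPR is a protein of the nuclear basket of the nuclear pore, and the study asked how its loss alters the distribution of transcripts between nucleus and cytoplasm. All 9 were among the 34464 genes measured, and all 9 were also among the 14611 nuclear-encoded genes with a mean above 1 FPKM that were analysed. FPKM scales fragments by transcript length and by the size of the library, so levels may be compared between genes.

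Cells received lentivirus for 5 days carrying a scrambled control shRNA or 1 of 2 shRNAs against TPR, named TPR A and TPR D. Each of the 3 shRNAs was represented by 3 replicate cultures. From each culture 10% of the cells was kept as the total sample and the rest was split with detergent into a nuclear and a cytoplasmic fraction, the latter including the endoplasmic reticulum, which gave 27 libraries. The cells were selected pools of a single transformed line. Levels are relative within each library, so a ratio between fractions states where a transcript stood relative to other transcripts. It does not state how many molecules lay in each compartment. As these are bulk samples, fewer cells with a transcript and less transcript per cell cannot be told apart.

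The sequence context that NMD reads on a normal transcript is the stop codon with what follows it. The windows below are shown because the members, which act where translation ends, have stop codons of their own. They come from the MANE reference transcripts in GENCODE release 44 on GRCh37. Each window holds 12 bases on either side of the stop codon, which is in capitals.
UPF1: ctgtcccagtatTAAaaggtggcggcg
UPF2: gggaggagacgtTGAtccagcagcacg
UPF3A: gaagaggcagagTGAgtcactgcacgc
UPF3B: ggaggagaggagTGAtaagtccagatg
SMG1: acagcctgggtgTGAatggcaagacag
SMG5: aaggaaattggtTGAtactgaccccca
SMG6: gcccaggtgggcTGAgggagccacact
SMG8: gcagtaacacaaTAAgtgttttccagc
SMG9: cgcctgctggccTGAggccaaggagag

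These stop codons lie at chr19:18976970-18976972 (UPF1), chr10:11963297-11963299 (UPF2), chr13:115070390-115070392 (UPF3A), chrX:118968841-118968843 (UPF3B), chr16:18820891-18820893 (SMG1), chr1:156220378-156220380 (SMG5), chr17:1964786-1964788 (SMG6), chr17:57292361-57292363 (SMG8) and chr19:44235748-44235750 (SMG9), on the strand of each gene given below. The stop codon was TGA in 7 members and TAA in 2, while 50.01% of the 12075 analysed coding genes with such a transcript ended in TGA, 28.4% in TAA and 21.6% in TAG. An exon junction lay after the stop codon in 1 member, UPF1, at a distance of 3 nt, and at any distance in 3.97% of the coding genes. None of the 9 had a junction more than 50 nt downstream of the stop, the arrangement that classically marks an mRNA for decay, and 0.389% of the coding genes did. At least 1 ATG preceded the start codon in 4 members (UPF2, SMG1, SMG5 and SMG9), against 40.8% of the coding genes. Whether NMD acts on the mRNAs of these members was not tested.

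The genes ranged from long and exon-rich to compact. UPF1 occupies chr19:18942768-18979039 on the plus strand, with 24 exons and a 5321-nt mRNA. UPF2 lies at chr10:11962021-12085169 on the minus strand, with 22 exons and an mRNA of 5168 nt. The paralogs UPF3A (chr13:115047076-115071292, plus strand, 10 exons, 2370 nt) and UPF3B (chrX:118967985-118986961, minus strand, 11 exons, 2343 nt) encode mRNAs of nearly the same length. SMG1 (chr16:18816182-18937730, minus strand) has 63 exons and a 16062-nt mRNA, longer than that of 99.5% of the coding genes.

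SMG8 (chr17:57286761-57292600, plus strand) is the compact member, with 4 exons, a 3221-nt mRNA and a 3′ UTR of only 228 nt. SMG9 (chr19:44232135-44259114, minus strand) has 14 exons and a 3′ UTR of 3613 nt, longer than in 83.5% of the coding genes. SMG5 (chr1:156219015-156252616, minus strand) has 22 exons and an mRNA of 4559 nt, and SMG6 (chr17:1963133-2207079, minus strand) has 19 exons and an mRNA of 5974 nt. In these MANE transcripts 8 of the 9 had more exons than the median coding gene (9 exons), and 6 of the 9 a longer mRNA than the median of 3349 nt. The study instead took the median over the transcripts of a gene. Over annotated coding transcripts that median was 4 exons for SMG8 and SMG9 and 5 for SMG6, against 7 for coding genes. The other members had 9 (UPF3A) to 24 (UPF1). Unspliced transcripts (pre-mRNA) had a median of 4487 nt for SMG8, 6951 nt for SMG9 and 18957.5 nt for UPF3B, against 22870 nt. The other members had 24181 (UPF3A) to 122788 nt (UPF2).

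The targeted gene behaved as its labels state. TPR mRNA in the total fraction was 26.4 ± 1.57 FPKM under the control shRNA, 4.17 ± 0.654 FPKM under TPR A and 4.66 ± 1.39 FPKM under TPR D (mean ± SD, n = 3). The mesenchymal markers VIM, SPARC, COL1A1 and RUNX2 averaged 1617, 528, 42.8 and 15.8 FPKM over the 27 libraries, whereas COL1A2 averaged 0.264 FPKM; EPCAM averaged 3.88 FPKM, and CDH1, KRT19, PTPRC and CD3E were each below 1 FPKM on average. Mitochondrial transcripts made up 0.774 to 2.42% of the nuclear libraries, 15.8 to 24.7% of the total libraries and 26.5 to 37.9% of the cytoplasmic ones, with 2 exceptions. The library labelled nuclear of control replicate 2 held 21.8% and the library labelled total of the same culture 0.738%. The nuclear RNA MALAT1 was at 83.6 FPKM in the former, against 16.3 to 40.1 FPKM in the other nuclear libraries, and at 16.3 FPKM in the latter, against 71.6 to 207 FPKM in the other total libraries. By both measures each of these 2 libraries thus lay within or next to the range of the other's fraction. An exchange of the 2 labels was not tested, the libraries were kept under their labels, and values without them are given beside the results that moved.

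In control and TPR-depleted cells alike, the NMD factor mRNAs did not share a single distribution. The mRNAs of UPF2, SMG8, UPF3B, SMG1 and UPF1 were 2.09- to 2.75-fold higher in the nuclear than in the cytoplasmic fraction, while that of SMG5 was 1.88-fold higher in the cytoplasm. SMG9, SMG6 and UPF3A lay between these, at 1.34-, 1.33- and 1.18-fold nuclear excess, and did not pass the test. In limma (log2 of normalised FPKM plus 0.1, all 9 cultures, Benjamini-Hochberg adjustment over all genes), 5 members passed as nuclear and 1 as cytoplasmic. Such calls were common: 59.2% of all genes passed in this comparison, 30.0% in the nuclear direction and 29.2% in the cytoplasmic direction. With TPR D on its own these 6 members passed, and with TPR A all of them but SMG1 (adjusted p = 0.0699). The shares of all genes for these single shRNAs are not reported here. In control cells on their own the same 6 members passed, against 39.4% of all genes. Without control replicate 1 that count fell to 3, as UPF1, UPF3B and SMG5 no longer passed, and it was likewise 3 with replicates 2 and 3 only. In control cells UPF3B also failed to pass without control replicate 2 (adjusted p = 0.107), without control replicate 3 (0.0824) and with just the doubtful nuclear and total libraries of control replicate 2 left out (0.0786) and with no minimum level (0.054), and SMG1 without control replicate 2 (0.0587).

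**Figure D1:**
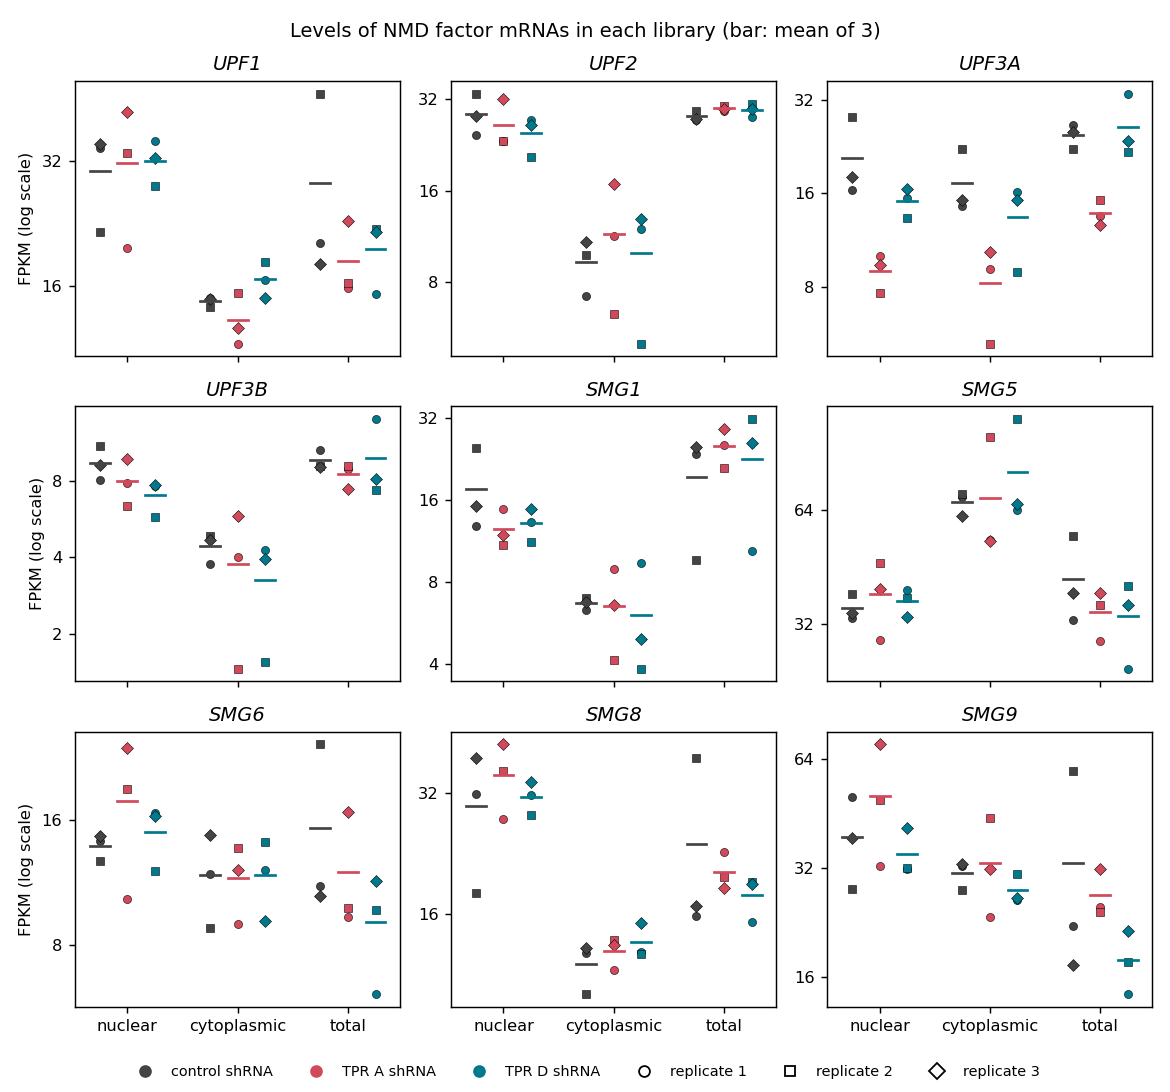
Level of each NMD factor mRNA (FPKM, log axis) in the nuclear, cytoplasmic and total libraries; points are libraries, colours shRNAs, shapes replicates and bars means of 3. UPF2, SMG8 and UPF1 sit higher in nuclear than in cytoplasmic libraries in all 3 shRNA groups, SMG5 sits lower, and UPF3A is lowest with TPR A.

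UPF2 showed the highest nuclear to cytoplasmic (N/C) ratio of the group. Its nuclear libraries held 24.4, 33.4 and 28.2 FPKM in control replicates 1 to 3, 23.3, 23.4 and 32.2 FPKM with TPR A and 27.3, 20.7 and 26.3 FPKM with TPR D. The cytoplasmic libraries held 7.22, 9.84 and 10.8 FPKM in controls, 11.4, 6.29 and 16.9 FPKM with TPR A and 12, 5.02 and 12.9 FPKM with TPR D. Every nuclear value of UPF2 was above every cytoplasmic one. The share of all genes that separate in this way was not counted, for UPF2 or for the members below. In limma 59.2% of all genes passed between these fractions. The log2 N/C ratio of UPF2 averaged 1.66 ± 0.22 in controls, 1.29 ± 0.53 for TPR A and 1.43 ± 0.53 for TPR D (mean ± SD, n = 3), and 94.7% of the analysed genes had a lower mean ratio over the 9 cultures.

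For UPF1, the helicase on which the whole pathway turns, nuclear values were 34.3, 21.6 and 35.1 FPKM in control replicates 1 to 3, 19.7, 33.3 and 41.8 FPKM with TPR A and 35.7, 27.8 and 32.5 FPKM with TPR D. Cytoplasmic values were tighter, with 15, 14.3 and 15 FPKM in controls, 11.7, 15.4 and 12.8 FPKM with TPR A and 16.6, 18.3 and 15 FPKM with TPR D. The lowest nuclear value of UPF1 thus exceeded the highest cytoplasmic one. Its log2 N/C ratio was 1.07 over all cultures (95% interval 0.73 to 1.404, adjusted p = 8.493e-06). Without the 2 doubtful control replicate 2 libraries it was 1.14.

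The SMG1 kinase complex was represented by a nuclear-biased pair, SMG1 and SMG8, and by SMG9 with less bias. SMG8 had nuclear levels of 31.9, 18 and 39.3 FPKM in controls, 27.6, 36.5 and 42.5 FPKM with TPR A and 31.8, 28.3 and 34.1 FPKM with TPR D. In the cytoplasm SMG8 was at 12.8, 10.1 and 13.1 FPKM in controls, 11.5, 13.8 and 13.3 FPKM with TPR A and 12.8, 12.7 and 15.2 FPKM with TPR D. No SMG8 value of the first set reached down to the second, and the log2 ratio (1.32, SD 0.24, n = 9) varied least of the 9 members. The compact 4-exon SMG8 mRNA and the 63-exon SMG1 mRNA were therefore found on the same side.

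SMG1 was at 12.9, 24.9 and 15.2 FPKM in control nuclei, 14.8, 10.9 and 11.9 FPKM in TPR A nuclei and 13.3, 11.3 and 14.9 FPKM in TPR D nuclei. Its cytoplasmic values were 6.35, 6.97 and 6.75 FPKM in controls, 8.93, 4.15 and 6.58 FPKM with TPR A and 9.43, 3.85 and 4.96 FPKM with TPR D. All nuclear values of SMG1 were above all cytoplasmic values, and the log2 ratio over cultures was 1.19 ± 0.45 (SD, n = 9). The SMG1 values are uncertain in a further respect, since near-identical partial copies of the gene exist in the genome and none of them (SMG1P) has a row in the table, so reads from copies cannot be told apart. SMG9 ranged from 27.9 to 70.3 FPKM in nuclear and from 23.4 to 43.9 FPKM in cytoplasmic libraries, and its log2 ratio (0.43 ± 0.36) was above 0 in 9 of 9 cultures without passing the test (adjusted p = 0.0593). Without the doubtful control replicate 2 libraries SMG9 passed (log2 ratio 0.50, adjusted p = 0.00638), as it also did with a minimum of 5 FPKM (adjusted p = 0.0289), with just the nuclear and cytoplasmic groups fitted (0.0278) and without control replicate 2 (0.0139).

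SMG5 was the most abundant member and the only one with a cytoplasmic excess that passed. Cytoplasmic SMG5 stood at 69.2, 70.4 and 61.8 FPKM in controls, 53.4, 99.3 and 53 FPKM with TPR A and 64.0, 111 and 66.1 FPKM with TPR D. Nuclear SMG5 stood at 33.3, 38.4 and 34.3 FPKM in controls, 29.1, 46.4 and 39.8 FPKM with TPR A and 39.5, 37.5 and 33.5 FPKM with TPR D. The lowest cytoplasmic value was above the highest nuclear one, and the log2 N/C ratio was below 0 in 9 of 9 cultures (-0.91 ± 0.31, SD, n = 9). Its highest culture, at -0.41, lay below the lowest value of any other member in any culture, -0.22 for SMG6. Of the analysed genes 11.01% had a lower mean ratio than SMG5.

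SMG6, the endonuclease, was near balance. Nuclear libraries held 10.3 to 24.0 FPKM and cytoplasmic libraries 8.81 to 14.8 FPKM of SMG6, ranges that overlap. The log2 N/C ratio of SMG6 was 0.41 ± 0.38 (SD, n = 9), above 0 in 8 of 9 cultures, with an adjusted p of 0.0651 that fell to 0.0481 when replicates were blocked and to 0.0451 without the doubtful control replicate 2 libraries. It also passed with a minimum of 5 FPKM (adjusted p = 0.0363), with just the nuclear and cytoplasmic groups fitted (0.0375), without TPR A replicate 1 (0.0396) and without TPR D replicate 2 (0.0454).

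**Figure D2:**
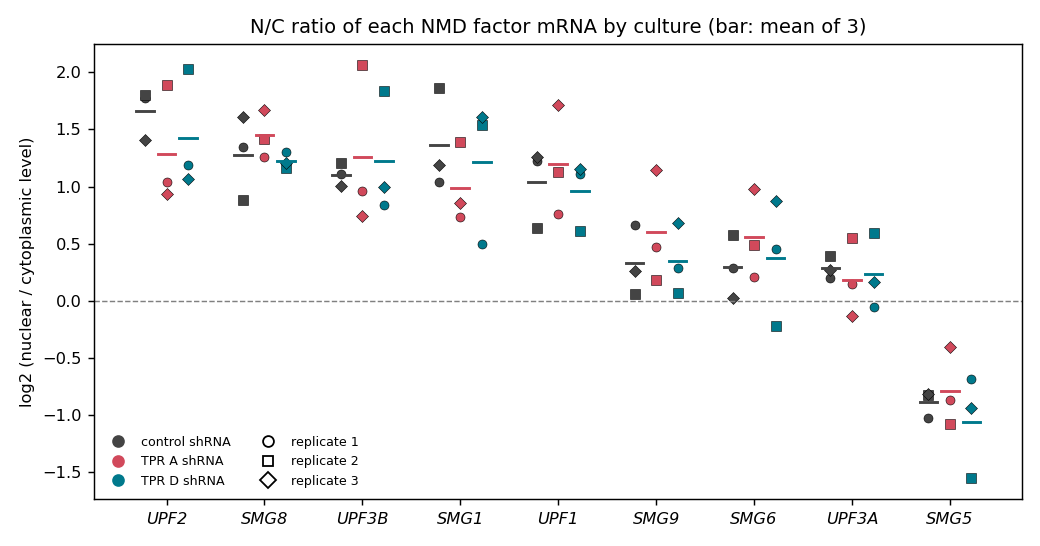
log2 ratio of nuclear to cytoplasmic level for each NMD factor mRNA; each point is a culture, colours are shRNAs, shapes replicates and bars means of 3. The ratios of SMG5 lie between -1.55 and -0.41, below all other members, and those of UPF2, SMG8, UPF3B, SMG1 and UPF1 are above 0 in every culture.

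The paralogs UPF3A and UPF3B, which bind the same partners, differed in level and in distribution. UPF3B, the least abundant member, was at 8.08, 11 and 9.28 FPKM in control nuclei, 7.88, 6.36 and 9.73 FPKM in TPR A nuclei and 7.68, 5.77 and 7.73 FPKM in TPR D nuclei. In the cytoplasm it was at 3.77, 4.87 and 4.68 FPKM in controls, 4.02, 1.46 and 5.80 FPKM with TPR A and 4.27, 1.55 and 3.95 FPKM with TPR D. UPF3B therefore had a nuclear excess in 9 of 9 cultures, with a log2 ratio of 1.20 ± 0.45 (SD, n = 9), whereas UPF3A, at 0.24 ± 0.25, was above 0 in 7 of 9. The difference between the paralogs was not tested as such, but the lowest ratio of UPF3B in any culture (0.74) was above the highest of UPF3A (0.59).

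In the order of the mean ratios (UPF2, SMG8, UPF3B, SMG1, UPF1, SMG9, SMG6, UPF3A, SMG5), neighbours from UPF2 to UPF1 differed by less than their SD over cultures, as did SMG9, SMG6 and UPF3A among themselves. Breaks wider than the SDs lay between UPF1 (1.07) and SMG9 (0.43) and between UPF3A (0.24) and SMG5 (-0.91). Against the median gene, at -0.01, UPF2, SMG8, UPF3B and SMG1 ranked above 94.7, 93.0, 91.3 and 91.2% of the analysed genes, and UPF1 above 89.0%.

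**Figure D3:**
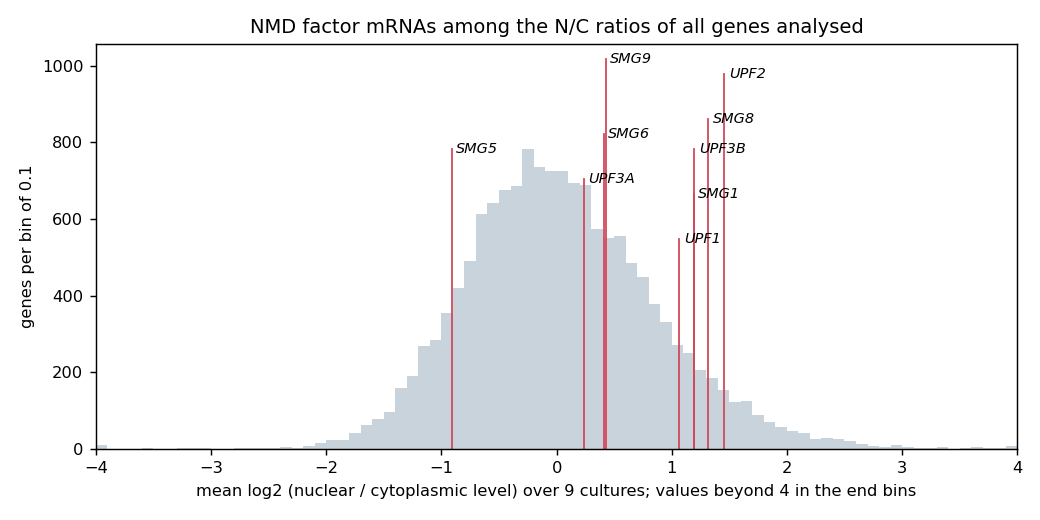
Histogram of the mean log2 nuclear to cytoplasmic ratio over 9 cultures for the 14611 analysed genes (bins of 0.1), with vertical lines at the NMD factor mRNAs; line heights only separate the names. UPF2 at 1.46 and SMG5 at -0.91 are the ends of the group, and UPF1, SMG1, UPF3B, SMG8 and UPF2 lie in the right shoulder.

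Replicate 2 of both TPR shRNAs carried the extreme cytoplasmic values. Within the TPR A and within the TPR D cytoplasmic libraries, replicate 2 was the lowest for UPF2, UPF3A, UPF3B and SMG1 and the highest for SMG5, SMG6, SMG9 and UPF1. The share of all genes with such matching extremes was not counted. Over all analysed genes the TPR A and TPR D cytoplasmic libraries of the same replicate number deviated together (r from 0.40 to 0.60), so the pattern is not particular to the members. The nuclear RNA MALAT1 was also lowest in replicate 2, at 2.27 and 3.18 FPKM, against 7.17 to 16.1 FPKM in the other 4 TPR-depleted cytoplasmic libraries. Its part in the members' values was not tested.

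Loss of TPR did not detectably move any of the NMD factor mRNAs between the compartments. With both shRNAs combined and set against control, 0 of the 9 members passed for a change of the N/C ratio, as did 0.0% of all analysed genes, in limma with trend. At an unadjusted p under 0.05 there were 251 genes and 0 members. UPF2 changed by -0.30 on the log2 scale (95% interval -1.07 to 0.46) and SMG1 by -0.26 (-1.29 to 0.76). The remaining 7 members lay between -0.08 for UPF3A and 0.17 for SMG6, and SMG5 at -0.03 (-0.68 to 0.61). These estimates rested in part on the doubtful control replicate 2 libraries: without them UPF2 changed by -0.18, SMG1 by 0.02, UPF3B by 0.26, UPF3A by 0.17, SMG6 by 0.12, SMG5 by 0.04, SMG9 by -0.07, UPF1 by -0.18 and SMG8 by -0.26, so that 6 of the 9 had the opposite sign, and 0 of 9 passed. Shifts that lie within these intervals were not detectable with 3 cultures a group, which does not show that the ratios were equal. The fit did not pair the nuclear and cytoplasmic libraries of a culture, which deviated together, so the intervals make no use of that pairing. With the culture as a block, the members' N/C changes with both shRNAs kept their signs, and none passed. For TPR A on its own the members ranged from -0.37 to 0.27 and for TPR D from -0.23 to 0.12, with 0 passing in each, and the 2 shRNAs did not differ in a called way for any member (0 of 9).

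**Figure D4:**
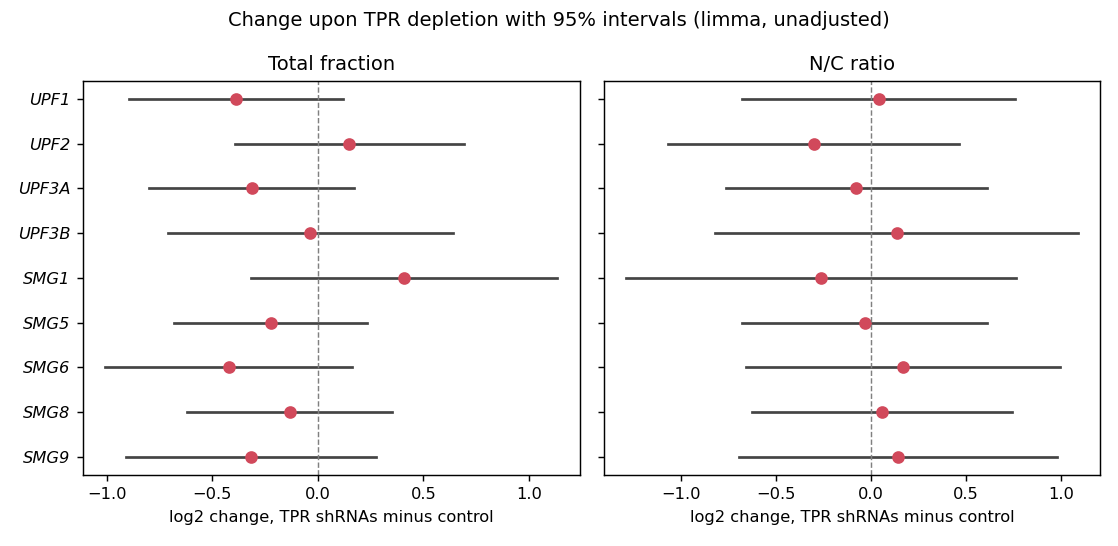
log2 change of each NMD factor mRNA with both TPR shRNAs relative to control, in the total fraction (left) and for the nuclear to cytoplasmic ratio (right); points are limma estimates and lines unadjusted 95% intervals. Each interval in both panels includes 0, with estimates from -0.42 (SMG6) to 0.41 (SMG1) on the left and from -0.30 (UPF2) to 0.17 (SMG6) on the right.

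No member was called as changed in whole cells either. In the total fraction 0 of 9 members passed with both shRNAs together, against 1.14% of all genes, and 0 of 9 with TPR A (0.821% of genes) or with TPR D (0.753%). The estimates were -0.42 for SMG6, -0.39 for UPF1, -0.32 for SMG9, -0.31 for UPF3A, -0.22 for SMG5, -0.13 for SMG8, -0.04 for UPF3B, 0.15 for UPF2 and 0.41 for SMG1, the lowest adjusted p being 0.438 for UPF1. At an unadjusted p under 0.05 there were 0 members and 2351 genes. The control mean leaned on the doubtful library of replicate 2: UPF1 in total RNA was at 20.4, 46.3 and 18.1 FPKM in controls, 15.8, 16.3 and 22.9 FPKM with TPR A and 15.3, 21.9 and 21.6 FPKM with TPR D. Without control replicate 2's total and nuclear libraries the UPF1 estimate went from -0.39 to 0.002, SMG6 from -0.42 to -0.07, SMG9 from -0.32 to 0.18, SMG8 from -0.13 to 0.26, SMG5 from -0.22 to -0.05 and SMG1 from 0.41 to -0.06, and 0 of 9 passed.

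UPF2 varied little in total RNA. It was measured there at 27.4, 29.3 and 27.6 FPKM in controls, 29.3, 30.5 and 29.8 FPKM with TPR A and 28.0, 30.8 and 29.8 FPKM with TPR D. After normalisation all 6 TPR-depleted libraries lay above the 3 controls, as in 3.94% of all genes, by 0.15 on the log2 scale. One of these controls was the doubtful total library of replicate 2, with a library factor of 1.058. As deposited it held 29.3 FPKM, above the 28.0 FPKM of TPR D replicate 1. The library labelled nuclear of that culture held 33.4 FPKM, above all 6 TPR-depleted total libraries. Without the 2 doubtful libraries the limma estimate was 0.148 (adjusted p = 0.957). The exact 2-sided permutation test gave p = 0.0119, the smallest that 84 splits allow and the lowest of 36 such tests on the members. Adjusted over these 36 tests it was 0.429, and limma's adjusted p over all genes was 0.808. The rise, 1.11-fold, was smaller than limma's standard error for this contrast (0.26). That error also draws on the nuclear and cytoplasmic libraries, in which UPF2 varied more than in total RNA.

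UPF3A was the exception at the level of single shRNAs. In total RNA it was at 26.6, 22.2 and 25.2 FPKM in controls, 13.6, 15.3 and 12.6 FPKM with TPR A and 33.6, 21.7 and 23.6 FPKM with TPR D. In the nucleus the values were 16.4, 28.2 and 18 FPKM in controls, 10.0, 7.64 and 9.39 FPKM with TPR A and 15.5, 13.4 and 16.6 FPKM with TPR D. In the cytoplasm they were 14.6, 22.2 and 15.2 FPKM in controls, 9.10, 5.24 and 10.4 FPKM with TPR A and 16.1, 8.91 and 15.2 FPKM with TPR D. All 3 TPR A libraries were below all 3 controls in each fraction, which held for 8.33, 9.01 and 8.62% of all genes in total, nuclear and cytoplasmic RNA. With TPR D the groups overlapped in all 3 fractions.

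In limma UPF3A fell with TPR A by 1.16 on the log2 scale in the nucleus (2.24-fold, adjusted p = 0.0399), as the single member to pass there, where 0.329% of all genes passed as lower and 0.903% in either direction. In the cytoplasm the estimate was -1.06 (adjusted p = 0.0745) and in total RNA -0.77 (adjusted p = 0.214). For TPR D the estimates were -0.42 in the nucleus, -0.37 in the cytoplasm and 0.14 in total RNA, with adjusted p-values of 0.732, 0.788 and 0.832. Beyond UPF3A in TPR A nuclei, 0 of 9 members passed for TPR A in the cytoplasm (0.623% of genes) or for TPR D in the nucleus (0.479%) and the cytoplasm (0.575%), and between the shRNAs 0 of 9 passed in total (0.281%), nuclear (0.315%) and cytoplasmic RNA (0.637%). The direct test between TPR A and TPR D did not pass in any fraction (differences of -0.75 in the nucleus, -0.70 in the cytoplasm and -0.92 in total RNA, adjusted p = 0.351, 0.422 and 0.196), so the decrease is not shown to differ between the shRNAs.

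The nuclear call of UPF3A was not stable. It was lost when any 1 control or TPR A replicate was left out, without TPR D replicate 3, with a minimum of 5 FPKM, with the 2 groups fitted on their own and with replicates 2 and 3 only, at adjusted p-values between 0.0543 and 0.240. Without the doubtful control replicate 2 libraries the nuclear estimate was -0.92 (adjusted p = 0.208), while the cytoplasmic one, -1.06, then passed (adjusted p = 0.0396), as it also did with the replicate block (adjusted p = 0.0422). UPF3A was below the controls in nucleus and cytoplasm alike with TPR A, and its N/C ratio was not called as changed.

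UPF3B was at 8.91, 9.14 and 7.41 FPKM in TPR A total RNA, against 10.6, 9.19 and 9.08 FPKM in controls and 14.1, 7.35 and 8.12 FPKM with TPR D. With TPR A its limma estimates were -0.12 in total RNA, -0.25 in the nucleus and -0.40 in the cytoplasm. None of these passed (adjusted p = 0.924, 0.829 and 0.776). Whether UPF3B changed otherwise than UPF3A was not tested. The ratio of UPF3A to UPF3B in total RNA was 2.50, 2.42 and 2.78 in controls, 1.52, 1.67 and 1.70 with TPR A and 2.39, 2.95 and 2.91 with TPR D. In nuclear RNA it was 2.03, 2.57 and 1.94 in controls, 1.27, 1.20 and 0.966 with TPR A and 2.02, 2.32 and 2.14 with TPR D. The TPR A ratios were below those of both other groups in these 2 fractions, including the doubtful control replicate 2 libraries. In the cytoplasm it was 3.86, 4.56 and 3.26 in controls, 2.26, 3.61 and 1.79 with TPR A and 3.78, 5.75 and 3.85 with TPR D, so that TPR A overlapped the controls and lay below TPR D. With 3 values a group no exact test can go below p = 0.1, and no p is given for a ratio chosen after its parts were seen.

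**Figure D5:**
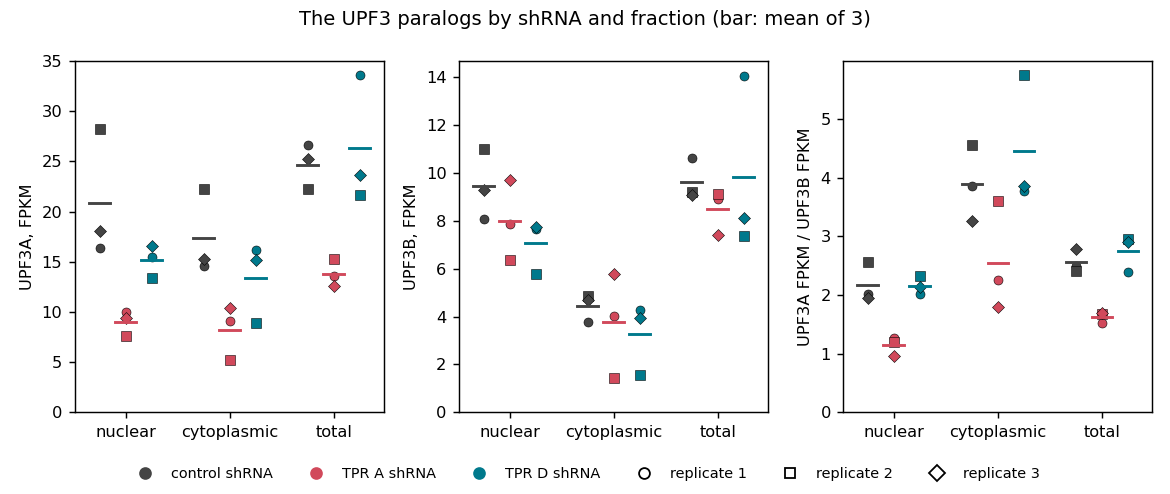
UPF3A level, UPF3B level (both FPKM) and their ratio in nuclear, cytoplasmic and total libraries; points are libraries, colours shRNAs, shapes replicates, bars means of 3, and all axes start at 0. In total RNA the ratio is 1.52 to 1.70 with TPR A, below the 2.39 to 2.95 of the control and TPR D libraries.

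In the separate fractions with both shRNAs combined, 0 of 9 members passed in the nucleus (0.808% of genes) and 0 of 9 in the cytoplasm (0.643%), with estimates from -0.79 to 0.23 and from -0.71 to 0.17, UPF3A being the lowest in each. Other groups that did not overlap were UPF3B lower in TPR D nuclei (as in 8.34% of genes), UPF1 higher in TPR D cytoplasm (6.09%), and UPF2 higher in total RNA with TPR A (9.74%) and with TPR D (8.2%), none of which passed limma.

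The total libraries, made from unfractionated cells, were also compared with each fraction, a comparison added after the members' levels had been seen. UPF3A was higher in total RNA than in either fraction, by 0.61 on the log2 scale against the nucleus (adjusted p = 0.0148) and by 0.85 against the cytoplasm (adjusted p = 7.52e-05), and its total value was the highest in 8 of 9 cultures. Both tests passed for 4.49% of all genes and for 1 member. SMG1 showed total levels above both fractions in 7 of 9 cultures, at 23.6, 9.68 and 25 FPKM in control, 25.6, 20.9 and 29.3 FPKM in TPR A and 10.4, 31.8 and 25.9 FPKM in TPR D total RNA. It exceeded the nucleus by 0.63 (adjusted p = 0.0555), which became 0.88 (adjusted p = 0.00285) without the doubtful control replicate 2 libraries. UPF2 and UPF3B were highest in total RNA in 6 of 9 cultures each. The total sample and the 2 fractions came from the same culture. Why some total levels lay outside the range of both fractions was not tested, nor what this means for the N/C ratios.

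In the opposite direction, SMG9, SMG8 and UPF1 were lower in total than in nuclear RNA, by 0.69, 0.60 and 0.50 on the log2 scale (adjusted p = 0.0189, 0.0150 and 0.0359), and SMG9 was below both fractions in 7 of 9 cultures. These calls against the nucleus were lost when single cultures were left out. For UPF3A this held without control replicate 1 (adjusted p = 0.111), control replicate 3 (0.0971), TPR A replicate 2 (0.0527) or TPR A replicate 3 (0.0589), and for SMG8 and SMG9 without the same cultures, at adjusted p-values from 0.0564 to 0.133, and for SMG9 without TPR D replicate 3 (0.0507). UPF1 lost its call without any culture other than control replicate 2 and TPR A replicate 1, at up to 0.188. Without the doubtful libraries all of these passed, and SMG6 did too (-0.50, adjusted p = 0.0349). Altogether 4 of 9 members differed between total and nuclear RNA, against 22.1% of all genes, and 7 of 9 between total and cytoplasmic RNA, against 63.3%. Of these 7, SMG5 was lower in total than in cytoplasmic RNA (-0.88, adjusted p = 2.35e-05) and 6 were higher in total RNA, from UPF1 at 0.57 to SMG1 at 1.82; without the doubtful libraries SMG9 was also lower in total RNA (-0.44, adjusted p = 0.0132).

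The rest of the pathway was examined through 26 further genes (cap-binding proteins, exon junction complex, release factors, decapping and accessory proteins), of which 24 were matched and tested. After TPR depletion 0 of 24 passed in total RNA, 0 in the nucleus, 0 in the cytoplasm and 0 for the N/C ratio. In total RNA 18 of the 24 had estimates below 0 (median -0.18, all genes -0.01), from RUVBL2, an ATPase that acts with the SMG1 kinase, at -0.83 (adjusted p = 0.204) to the decapping enzyme DCP2 at 0.66 (adjusted p = 0.285), with 6 at an unadjusted p under 0.05. Here too a single library weighed on the controls, in which RUVBL2 averaged 133 ± 94.3 FPKM (SD, n = 3) with a highest value of 242 FPKM, against 62.1 and 61.2 FPKM with TPR A and TPR D. Without the doubtful control replicate 2 libraries, a setting chosen for the lists after the data were seen, 11 of the 24 were below 0 in total RNA (median 0.03), RUVBL2 was at -0.32 and DCP2 at 0.29, and 0 of 24 passed. The median for the N/C change was 0.15, against 0.00 for all genes, and -0.004 without these libraries.

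In the distribution over all cultures 7 of the 24 passed as nuclear and 3 as cytoplasmic, where 30.0% and 29.2% of all genes passed; without the doubtful libraries these counts were 9 and 4. The 5′-3′ exonuclease XRN1 (log2 N/C ratio 1.73), GNL2 (1.65), NBAS (1.54) and the release factor GSPT2 (1.49) were the most nuclear, followed by the cap-binding NCBP1 (0.79), GSPT1 (0.76) and NCBP3 (0.47). The cytoplasmic side included RNPS1 (-0.73), an accessory factor of the exon junction complex, and the helicase DHX34 (-0.46).

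Transcripts that NMD is known to degrade were examined alongside the factors. None of the 16 listed targets passed for TPR depletion in total, nuclear or cytoplasmic RNA or for the N/C ratio. In total RNA their median change was 0.07 (all genes -0.01), with 9 of 16 above 0, from ASNS, asparagine synthetase, at -0.65 (adjusted p = 0.291) to the snoRNA host SNHG12 at 0.93 (adjusted p = 0.345). The ASNS estimate rested on 1 control library at 237 FPKM (control mean 124 ± 99.1 FPKM, SD, n = 3, against 67.7 and 56.6 FPKM with TPR A and TPR D). Without the doubtful control replicate 2 libraries ASNS was at -0.06 and SNHG12 at 0.34, and 12 of 16 targets were above 0 (median 0.08). For the N/C ratio 15 of 16 were above 0 with both shRNAs together, with a median of 0.28 where all genes had 0.00. The lowest was the stress-induced factor ATF3 at -0.04 and the highest SNHG12 at 1.68 (SE 0.69, adjusted p = 0.999), and 1 of 16 was under an unadjusted p of 0.05. Without the doubtful libraries 15 of 16 were likewise above 0, with a median of 0.34, and 0 passed. In the cytoplasm 2 of 16 were above 0 (median -0.27). Over all cultures the targets were divided, 6 nuclear and 5 cytoplasmic, against the same 30.0% and 29.2% of all genes. The nuclear ones were SNHG12 (log2 N/C ratio 2.77), SNHG1 (0.75), ASNS (0.73), MAP3K14 (0.54), CARS1 (0.50) and GADD45B (0.37). The cytoplasmic ones were the stress transcription factor ATF4 (-1.21), the snoRNA hosts ZFAS1 (-1.14), GAS5 (-1.11) and SNHG15 (-0.51), and UPP1 (-0.81).

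Across the 27 libraries the members fell into sets with opposite profiles. UPF2 and UPF3B moved together (Pearson r = 0.93), as did UPF1 and SMG8 (0.91), UPF2 and SMG1 (0.85) and SMG6 and SMG9 (0.83), whereas SMG5 ran against UPF3B (-0.92), UPF2 (-0.89) and SMG1 (-0.76). These are descriptions over libraries that share fractions and cultures, and the difference between fractions enters every one of them. Among the genes whose profile was most like the mean of the standardised member profiles were DCAF1 (r = 0.96), URB1 (0.96), SMARCC1 (0.96) and THRAP3 (0.96).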

How the data were processed

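Poly(A)+ RNA of 3 fractions, 3 shRNAs and 3 replicates (27 libraries) was sequenced by the authors from a directional library kit. The deposited values are FPKM per gene, which the authors made from Salmon estimates on GENCODE release 19 (hg19); the processing notes also name DESeq2, whose output was not used here. Whole reads could be approached only for genes with a single transcript (90.4% of 46049 low values fell within 0.1 of a whole read at a length offset of 240 nt), so no count model was run. The members have 3 to 20 annotated transcripts each, so their read numbers are rough estimates made with the length of 1 reference transcript: at least about 108 reads in each library, or about 9.6% counting error (UPF3B), which covers counting error only.

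Library factors from the median of ratios (0.954 to 1.06) were applied to the FPKM, which were then log2-transformed with a pseudocount of 0.1, so that changes of low genes are understated. Genes with a mean above 1 FPKM outside the mitochondrial genome (14611 of 34464) entered limma 3.58.1 in R 4.3.3, with 9 groups, a trended prior and Benjamini-Hochberg adjustment over all genes at 0.05. The N/C ratio was the nuclear minus the cytoplasmic log2 value. Exact permutation tests used all 84 splits of 9 cultures. In simulated data limma recovered 196 of 200 changed genes (13 false calls) for the total fraction and 180 of 200 (9 false calls) for the N/C change, each among 14611 genes. The planted changes were larger than every change estimated for a member, and the libraries were simulated as independent. These shares therefore do not measure how often changes of the members' size would be found. Gene models and sequences came from GENCODE release 44 on GRCh37, and 32776 gene identifiers were matched to symbols.

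The members, the gene lists and the tests were chosen with earlier results of these data known. Outside the members, the genes named were TPR, fraction and cell type markers, the list genes past the threshold in a total or N/C contrast, otherwise those with the highest and lowest changes, and the genes most correlated with the mean member profile; some genes that this rule selects are not reported here. Replicates are labelled as separate samples, but nothing states separate days or thaws, so p-values measure the spread between these samples; the labels of replicate 1 are styled otherwise than those of replicates 2 and 3. Libraries were taken to deviate together where r was above 0.1 for every replicate number. The nuclear and cytoplasmic libraries of a culture did so (r from 0.22 to 0.47 for all 3 shRNAs), as did control and TPR A in total RNA (0.14 to 0.32). TPR A and TPR D did so in nuclear (0.13 to 0.27) and cytoplasmic RNA (0.40 to 0.60). The other pairs missed this cut-off, with a lowest r from -0.26 to 0.063 and a highest r from 0.20 to 0.51, so a weaker shared deviation is not excluded for them.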

Additional observations from a re-analysis of the deposited data

How the results depend on the processing

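The counts of members past the threshold were 0 under every alternative for the total, nuclear and cytoplasmic fractions (both shRNAs) and for the N/C change, with each shRNA or both. In controls, the 6 members whose N/C ratio passed became 3 with replicates 2 and 3 only and 3 to 6 when 1 replicate was left out; over all shRNAs, 6 became 6 to 8. The replicate block left the counts at 0 for the changes and at 6 in controls and gave 7 over all shRNAs (SMG6 joined); it added the cytoplasmic UPF3A decrease with TPR A (adjusted p = 0.0422) and total above nuclear for SMG1 (adjusted p = 0.0467), and changed no other call given here.

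Some estimates near 0 changed sign. The UPF3B change in total RNA was 0.033 with a minimum of 5 FPKM. SMG5, total against nuclear, was -0.025 with values as deposited and -0.024 with no minimum, and SMG6, total against cytoplasmic, was -0.0318 and -0.0319. With 1 replicate left out, the changes in total RNA with both shRNAs ranged from -0.064 to 0.67 (SMG1), -0.36 to 0.26 (SMG8), -0.65 to 0.18 (SMG9), -0.62 to 0.0020 (UPF1) and -0.18 to 0.057 (UPF3B), and from -0.048 to 0.28 for UPF3A with TPR D. The N/C changes then ranged from -0.13 to 0.090 (SMG5), -0.14 to 0.22 (SMG8), -0.16 to 0.15 (UPF1), -0.17 to 0.0040 (UPF3A) and -0.067 to 0.26 (UPF3B), SMG5, total against nuclear, from -0.014 to 0.12, and SMG6, total against cytoplasmic, from -0.14 to 0.17. Without only the doubtful nuclear and total libraries of control replicate 2, the N/C changes were 0.020 (SMG1), 0.036 (SMG5), -0.26 (SMG8), -0.068 (SMG9), -0.18 (UPF1) and 0.17 (UPF3A), SMG5, total against nuclear, was -0.0040 and SMG6, total against cytoplasmic, -0.074. The cause was not tested. With a minimum of 5 FPKM, SMG1 passed as higher in total than in nuclear RNA (adjusted p = 0.0404), and with only the groups of the contrast UPF1 no longer passed as lower there (0.0652). Replicate 1 on its own gave a nuclear UPF3A difference of -0.65 with TPR A. The contrasts of total with single fractions, and the UPF3A values by fraction and shRNA, were added after the data were seen, as were the list values without the doubtful libraries. Depth limited UPF3B the most.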
